A study of Homo sapiens with 12 samples.

Results

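The mitochondrial respiratory chain is built partly from nuclear genes and partly from the mitochondrial genome, and the nuclear-encoded structural subunits of complexes I to V are described here across a blue light experiment in human keratinocytes. Members were chosen by gene symbol (the NDUFA, NDUFB, NDUFC, NDUFS and NDUFV series, NDUFAB1, SDHA to SDHD, CYC1, the UQCR series, COX5 to COX8 subunits and the ATP5 series), with symbols of pseudogenes left out and a minimum of 120 counts over the 12 libraries. The rule gave 79 genes of the 45372 rows in the count table, of which 78 are described: 37 of complex I, 4 of complex II, 9 of complex III, 9 of complex IV and 19 of complex V. NDUFA4, at a mean of 460.1 CPM (counts scaled to a common library size), is counted under complex I by its symbol, also in the sums below, although its protein is associated with complex IV. In all, 99 rows matched the symbols, of which 17 had no count and 3 fell under the minimum. Just inside it were ATP5MGL with 125 counts, NDUFA7 with 240 and NDUFV2 with 242, and just outside it were COX6B2 with 91, UQCRHL with 68 and COX7A1 with 12. COX4I1 does not match the symbol rule and is given with the genes outside it.

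The cells were HaCaT, a spontaneously immortalized line of human skin keratinocytes, with a genotype given as wild-type. Plates received light from a 408 nm LED (4.6 mW/cm2, 50 J/cm2 per session, a dose chosen by the submitters to kill 50% of the cells) in 3 sessions a week for at most 14 weeks, while control plates are given as the dark counterpart of the same number of sessions. There were 6 groups of 2 libraries: blue_3 and dark_3 after 3 sessions, blue_14 and dark_14 after 14, and blue_42 and dark_42 after 42. RNA was read from the 3′ ends of transcripts with a QuantSeq forward kit. The 2 libraries of a group, named a and b, are not said to come from separate cultures. Every p-value thus measures only the spread between libraries of a group, estimated over all 6 groups together. All results come from 1 cell line, and each number of sessions has its own dark group. Between series, time in culture and the handling of each series cannot be told apart from the number of sessions.

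Complexes I to IV pass electrons from NADH and succinate to oxygen, with I, III and IV pumping protons across the inner mitochondrial membrane, and complex V, the ATP synthase, uses the returning protons to make ATP. Complex II is entirely nuclear-encoded, whereas complexes I, III, IV and V combine nuclear subunits with proteins read from the mitochondrial genome, so their assembly draws on both genomes. Promoters of nuclear subunit genes often hold binding motifs for NRF1, ETS family factors such as GABPA, YY1 and Sp1, and transcripts of mitochondrial genes are made by a separate polymerase inside the organelle.

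The promoter stretches that follow show these motifs in members that the results turn on or that carry a match. NDUFV3 (lower after 42 sessions in the dark) and COX6A1 (higher there) were picked after their values were seen, and NDUFB4 and COX5B are the members of highest mean level with an NRF1 and an ETS match in 100 bases before the start that no annotated exon covers. No such stretch held a YY1 match. For NDUFV3 and COX6A1 the stretch shown is the nearest such 100 bases with an Sp1 match. That match was thus required by the choice. Sequences are from RefSeq (GRCh38.p14), 5′ to 3′ on the strand of the gene, with matches on either strand in capitals.
NDUFV3 (chr21:42893165-42893264, plus strand, bases 144 to 45 before the start, 1 Sp1 match on the other strand): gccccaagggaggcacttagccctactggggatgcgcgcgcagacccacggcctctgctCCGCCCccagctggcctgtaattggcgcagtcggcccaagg
COX6A1 (chr12:120437990-120438089, plus strand, bases 123 to 24 before the start, 1 Sp1 match on each strand): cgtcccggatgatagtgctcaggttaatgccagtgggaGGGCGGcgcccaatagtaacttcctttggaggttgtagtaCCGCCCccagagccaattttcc
NDUFB4 (chr3:120596209-120596308, plus strand, bases 127 to 28 before the start, 1 NRF1 match): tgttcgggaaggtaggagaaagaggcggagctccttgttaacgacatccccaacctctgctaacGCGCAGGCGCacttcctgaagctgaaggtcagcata
COX5B (chr2:97645940-97646039, plus strand, bases 122 to 23 before the start, 1 ETS match and 1 Sp1 match on each strand, with 1 of the Sp1 matches next to the ETS match): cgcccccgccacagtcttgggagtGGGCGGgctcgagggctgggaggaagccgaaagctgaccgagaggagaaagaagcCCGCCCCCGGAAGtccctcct

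Over the whole RefSeq promoter table, which runs from 250 bases before to 50 after each start, 64 of the 78 members had 76 promoters. NRF1 letters (GCGCANGCGC, where N is any base) were found in 21.1% of the members' promoters and in 5.78% of all 35116 promoters. ETS letters (CCGGAAG) were found in 27.6% and 10.3%, YY1 letters (AAGATGG) in 25% and 5.84%, and Sp1 letters (GGGCGG) in 61.8% and 45.0%, on both strands in each case. At least 1 of NRF1, ETS and YY1 was present in 43 of the 76 members' promoters (56.6%, against 19.6% of all promoters), with 17 of 39 for complex I, 3 of 3 for complex II, 7 of 7 for complex III, 5 of 9 for complex IV and 11 of 18 for complex V. These are matches of letters, with no binding data. Members without an entry in the table are ATP5F1B, ATP5F1D, ATP5MC3, ATP5MF, ATP5MGL, COX6C, CYC1, NDUFA4, NDUFB5, NDUFB9, NDUFC2, NDUFS5, SDHC and UQCRB.

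Library totals ran from 2073160 counts (blue_14 b) to 8183941 (blue_42 b), and all 78 members passed the low-count filter that left 12878 genes for testing. Members took between 1.37% and 1.66% of a library's counts, and the 13 mitochondrially encoded messenger RNAs (MT mRNAs) between 6.05% and 8.84%. The 10 keratinocyte markers were all detected, with a summed level of 4440 to 6030 CPM in blue_42 and the 4 groups of 3 and 14 sessions and of 3540 to 4020 in dark_42, the lowest of the 6 groups. Mean SFN and KRT5 were 837.3 and 577.6 CPM in dark_42, against 1421 and 1127 in dark_3. KRT17, TP63 and ITGB4 had higher means in dark_42 (669.0, 56.05 and 186.7 CPM) than in dark_3 (560.3, 45.06 and 158.3). Means of the other listed markers were lower in dark_42 than in dark_3. Summed markers of other cell types stayed at or under 14.8 CPM for fibroblasts (7 genes), 6.43 for leukocytes (6), 5.73 for endothelium (3) and 1.91 for melanocytes (4, with MLANA and TYR at 0 throughout). The 10 neuronal markers summed to between 59.7 CPM in dark_42 and 238 in blue_3, with NEFL the highest of them in each library and TUBB3 at 0 up to 14 sessions. Mean NEFL was 146.2 CPM in dark_3 and 76.69 in dark_14, so the sum hides changes the other way. SYT1 (2.11 and 20.62 CPM), SNAP25 (1.66 and 13.59), CELF4, NEFM, MAP2, STMN2, GAP43 and RBFOX3 all had higher means in dark_14 than in dark_3. These sums differ between the series, and their part in the results on the members was not tested. Levels of members are CPM scaled by the trimmed mean of M-values, and differences are log2 ± SE from edgeR's quasi-likelihood test, called at a Benjamini-Hochberg adjusted p under 0.05 over all 12878 genes. In such bulk RNA, fewer cells of a type and less RNA per cell cannot be told apart.

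The first question was whether light changed the subunits' transcripts after a given number of sessions. After 3 sessions, none of the 78 members passed the test, where 0.0155% of all genes tested did. The median difference over the members was 0.01, with 40 of 78 above 0, beside a median of 0.01 over all genes tested. The smallest adjusted p of a member by edgeR's quasi-likelihood test was 0.56, and 1 member had an unadjusted p under 0.05. Groups did not overlap for 36 of 78 members (46.2%), against 43.6% of all genes tested. The 95% interval lay within 0.5 on either side of 0 for 67 of the 78 members, and DESeq2 called 0 members as well.

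After 14 sessions, again 0 of 78 members were called, beside a background of 0%, with a median of -0.002 and 38 of 78 above 0. Here 6 members had an unadjusted p under 0.05, the smallest adjusted p by edgeR's quasi-likelihood test was 0.767, DESeq2 called 0 members, and 60 of 78 intervals lay within 0.5 of 0. Non-overlapping groups were found for 24 of 78 members (30.8%), against 33.2% of all genes tested. The library blue_14 b was the shallowest of the 12.

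Some of the members with large differences at 3 or 14 sessions had opposite signs in the 2 series. ATP5F1C, the gamma subunit of the rotating central stalk of ATP synthase, was at 168.7 and 152.8 CPM in dark_3 and at 141.5 and 112.0 in blue_3, a difference of -0.34 ± 0.12 (edgeR adjusted p = 0.56). After 14 sessions it was at 128.9 and 145.1 CPM in dark_14 and 175.8 and 170.5 in blue_14, a difference of 0.33 ± 0.13 (edgeR adjusted p = 0.804). The groups did not overlap in either series, but blue was the lower group in the former and the higher in the latter, and neither difference passed the test. Without blue_3 a the difference after 3 sessions was -0.52, and without blue_3 b it was -0.19.

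SDHB, the iron-sulfur subunit of succinate dehydrogenase, gave -0.24 ± 0.17 after 3 sessions and 0.33 ± 0.19 after 14, with overlapping groups after 3. Neither was called, and single libraries moved both: after 3 sessions SDHB differed by -0.03 without blue_3 b and by -0.52 without blue_3 a, and after 14 by 0.17 without dark_14 a and by 0.58 without dark_14 b. COX8A, a small subunit of cytochrome c oxidase, was at 375.8 and 363.7 CPM in dark_14 and at 431.0 and 512.4 in blue_14 (0.35 ± 0.11, edgeR adjusted p = 0.767), and it differed by 0.02 after 3 sessions and by -0.17 after 42. ATP5ME, subunit e of the membrane part of ATP synthase, was at 148.6 and 181.5 CPM in dark_14 and at 143.7 and 102.7 in blue_14 (-0.41 ± 0.14, edgeR adjusted p = 0.767). Without blue_14 b the difference was -0.20, and without blue_14 a -0.70.

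ATP5MGL and NDUFV2, with few counts, had the largest differences by size at 3 and at 14 sessions, and NDUFA7 had few counts too. ATP5MGL, a gene related to subunit g of ATP synthase, was at 1.15 to 2.06 CPM in dark_3 and at 2.75 to 2.78 in blue_3, and at 1.15 to 2.04 in dark_14 and 0.287 to 0.955 in blue_14. Its differences were 0.79 ± 0.45 and -1.64 ± 0.81, neither called. Those of NDUFV2 were 0.53 ± 0.33 and -0.48 ± 0.40, and those of NDUFA7 -0.31 ± 0.35 and -0.30 ± 0.48, none called. NDUFV2, a core iron-sulfur subunit of the NADH-binding module, and NDUFA7, an accessory subunit, lay between 2.31 and 4.86 CPM and between 1.43 and 4.29 CPM over the 12 libraries. Each of these 3 genes overlaps another gene on its own strand in GENCODE 29 (CYB5R3, AP005263.1 and AC010323.1), and no label, header or processing note says whether reads there were counted.

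After 42 sessions, 0 of the 78 members were called between light and dark, where 1.23% of all genes tested were. DESeq2 called 0 as well, but gave no adjusted p for 3 of the 78. Differences ran from -0.42 (NDUFA7) to 0.43 (ATP5MC3), and the median was 0.01 with 40 of 78 above 0. An unadjusted p under 0.05 was found for 11 members, with no share over all genes tested to set beside it. Non-overlapping groups were found for 33 of 78 members (42.3%), against 42.2% of all genes tested, so that share is near the background. The 95% interval lay within 0.5 of 0 for 59 members.

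The change of the light effect itself was tested as an interaction. Between 3 and 42 sessions it was called for 0 of 78 members by edgeR and by DESeq2, where 0.435% of all genes tested were called by edgeR. DESeq2 gave no adjusted p for 3 members, and 10 members had an unadjusted p under 0.05 by edgeR, again without a share over all genes. ATP5MC3 (0.54 ± 0.18) and NDUFV3 (0.53 ± 0.18) had the highest differences and ATP5MGL (-0.91 ± 0.68) the lowest. Of the fits without 1 library, 1 called a member, NDUFV3 without dark_42 a.

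**Figure D1:**
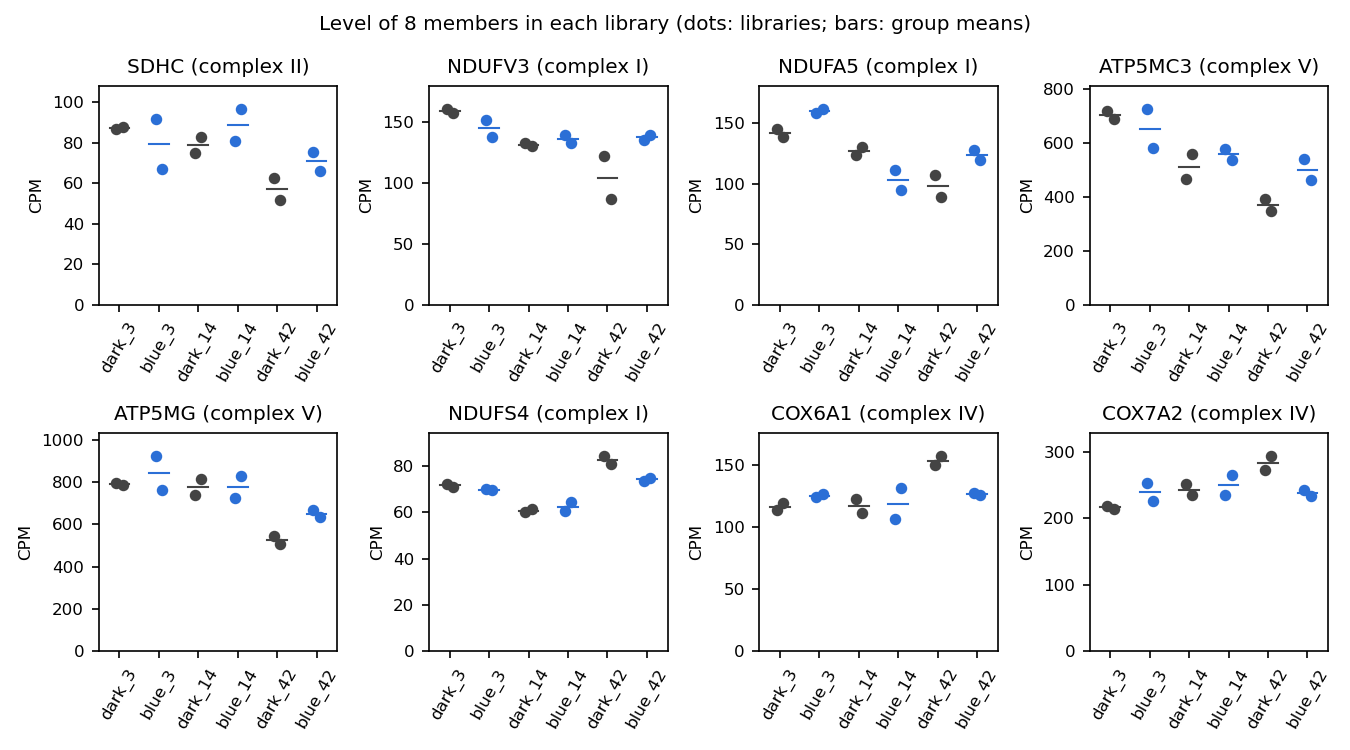
Level in CPM (vertical axis, from 0) of 8 members in each of the 12 libraries, by group (horizontal axis; grey, dark; blue, light; dots, libraries; bars, means of 2 libraries). ATP5MC3 sits at 347.5 and 393.1 CPM in dark_42 and at 461.9 or more in all other libraries, while COX6A1 and COX7A2 are highest in dark_42.

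ATP5MC3, 1 of 3 genes for the c subunit that forms the proton-driven ring of ATP synthase, was at 393.1 and 347.5 CPM in dark_42 and at 538.1 and 461.9 in blue_42 (0.43 ± 0.13, edgeR adjusted p = 0.109). The other two genes encode the same mature protein: ATP5MC2 differed by 0.23 ± 0.11 (edgeR adjusted p = 0.376) and ATP5MC1 by -0.07. NDUFV3, an accessory subunit of the NADH-binding module, was at 121.7 and 86.36 CPM in dark_42 and at 135.2 and 139.1 in blue_42 (0.40 ± 0.13, edgeR adjusted p = 0.14). For ATP5MC3 and NDUFV3 light lay above dark without overlap. The NDUFV3 difference depended on single libraries, and ran from 0.17 to 0.67 as each was dropped in turn. The value of 0.67 came without dark_42 a, which left dark_42 b, the lower library, alone in its group. NDUFA5, of the peripheral arm of complex I, was at 107.5 and 88.96 CPM in dark_42 and at 127.6 and 119.5 in blue_42 (0.33 ± 0.12, edgeR adjusted p = 0.184), again without overlap.

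On the lower side, COX6A1 and COX7A2, the ubiquitous forms of 2 small subunits of complex IV that have muscle-type counterparts, were both under dark in blue_42. COX6A1 was at 149.8 and 157.5 CPM in dark_42 and at 127.8 and 125.8 in blue_42, a difference of -0.28 ± 0.11 (edgeR adjusted p = 0.263). COX7A2 was at 272.9 and 293.9 CPM in dark_42 and at 243.4 and 233.7 in blue_42, a difference of -0.25 ± 0.11 (edgeR adjusted p = 0.311). Neither pair of groups overlapped and neither passed the test.

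Core and catalytic subunits were also measured at 42 sessions. NDUFS1 and NDUFV1, core subunits of the NADH-binding module, differed by -0.10 ± 0.11 and 0.02 ± 0.13, and NDUFV2, the low-count core subunit there, by -0.01 ± 0.34. SDHA, the flavoprotein of complex II, differed by -0.02 ± 0.13, UQCRFS1, the Rieske iron-sulfur protein of complex III, by 0.14 ± 0.11, and ATP5F1A and ATP5F1B, the alpha and beta subunits of the catalytic head, by -0.04 ± 0.11 and 0.08 ± 0.12. None of these 7 passed edgeR's test, with adjusted p from 0.654 to 0.994.

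By complex, the light-against-dark medians at 42 sessions were 0.01 for complex I, -0.01 for II, 0.05 for III, -0.04 for IV and 0.06 for V. Complex III had 6 of 9 members above 0, complex IV 2 of 9 and complex V 12 of 19.

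**Figure D2:**
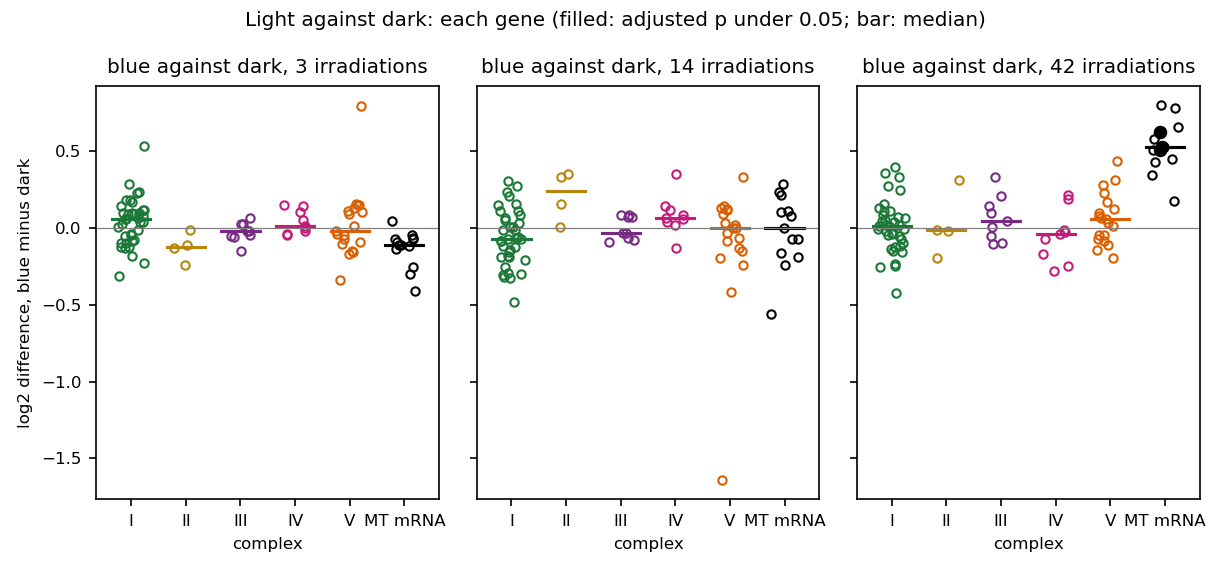
Log2 difference of blue minus dark (vertical axis) for each member by complex and for the 13 MT mRNAs (horizontal axis), after 3, 14 and 42 sessions (panels); filled dots passed edgeR's test and short bars are medians. At 42 sessions the members centre on 0.01 with none called, and all 13 MT mRNAs lie above 0 with a median of 0.52.

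The MT mRNAs, the partners of these subunits in complexes I, III, IV and V, were set beside them. At 42 sessions all 13 were above 0, with a median of 0.52. Groups did not overlap for 13 of 13, against 42.2% of all genes tested. The edgeR test called 3, MT-ND4 and MT-ND5 of complex I and MT-CO1 of complex IV, beside 1.23% of all genes tested. DESeq2 called 9 of the 13, and its share over all genes tested is not given here. All 13 were measured in the same dark_42 and blue_42 libraries, so they are not 13 independent observations. MT-ND4 was at 7068 and 7604 CPM in dark_42 and at 10780 and 11890 in blue_42 (0.63 ± 0.14, edgeR adjusted p = 0.0235). MT-ND5 rose by 0.52 ± 0.12 (edgeR adjusted p = 0.0288) and MT-CO1 by 0.51 ± 0.12 (edgeR adjusted p = 0.0479). After 3 sessions the MT median was -0.11 with 1 of 13 above 0, and after 14 it was 0.00 with 7 of 13 above 0, with none called in either series by edgeR or DESeq2. For the change of the light effect between 3 and 42 sessions, all 13 lay above 0 with a median of 0.63. There edgeR called 0 of 13, with an unadjusted p under 0.05 for 11, and DESeq2 called 4. For the 11 and the 4, no share over all genes tested is given here. How many were called at 42 sessions depended on single libraries: edgeR called 0 of 13 without dark_42 b, blue_42 a or blue_42 b, 1 without dark_3 a or dark_3 b, 7 without blue_14 a and 8 without blue_14 b, while all 13 lay above 0 in each of the 12 fits. Of the mitochondrial ribosomal RNAs, MT-RNR1 differed by -0.01 ± 0.20 at 42 sessions and MT-RNR2 by 0.07 ± 0.13, neither called. MT-RNR1 was at 4622 and 4289 CPM in dark_42 and at 5690 and 3141 in blue_42, so the blue_42 libraries lay on either side of dark_42. No test of the difference between the MT and the nuclear genes was made.

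The summed levels give both groups of genes on the CPM scale. The 78 members together were at 14975 and 13947 CPM in dark_42 and at 15249 and 14547 in blue_42, means of 14461 ± 727 and 14898 ± 496 (SD, n = 2), which overlap and differ by 3.0%. The MT mRNAs were at 63130 and 58682 CPM in dark_42 and at 84312 and 83642 in blue_42, which do not overlap and differ by 37.9%. The ratio of nuclear to MT sums stood at 0.237 and 0.238 in the dark_42 libraries, against 0.181 and 0.174 under light.

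Within complexes, nuclear and MT sums at 42 sessions differed by 2.0% and 48.1% for complex I, 4.4% and 42.0% for complex III, -3.4% and 20.7% for complex IV and 6.8% and 53.5% for complex V. Complex II, with no MT partner, differed by 5.3%. Leaving out 1 library at a time kept the nuclear ratio of blue_42 to dark_42 at 1.01 to 1.08 for complex III, 0.956 to 0.977 for IV and 1.01 to 1.13 for V. It crossed 1 for complexes I (0.989 to 1.05) and II (0.979 to 1.14).

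The ratio of nuclear to MT sums did not follow light across the series. It was 0.22 and 0.243 in dark_3, 0.249 and 0.255 in blue_3, 0.155 and 0.193 in dark_14, and 0.171 and 0.185 in blue_14. High ratios were thus found in dark_3, blue_3 and dark_42, and low ones in dark_14, blue_14 and blue_42. The comparisons of dark_42 with blue_42 and with dark_14 share the dark_42 libraries.

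**Figure D3:**
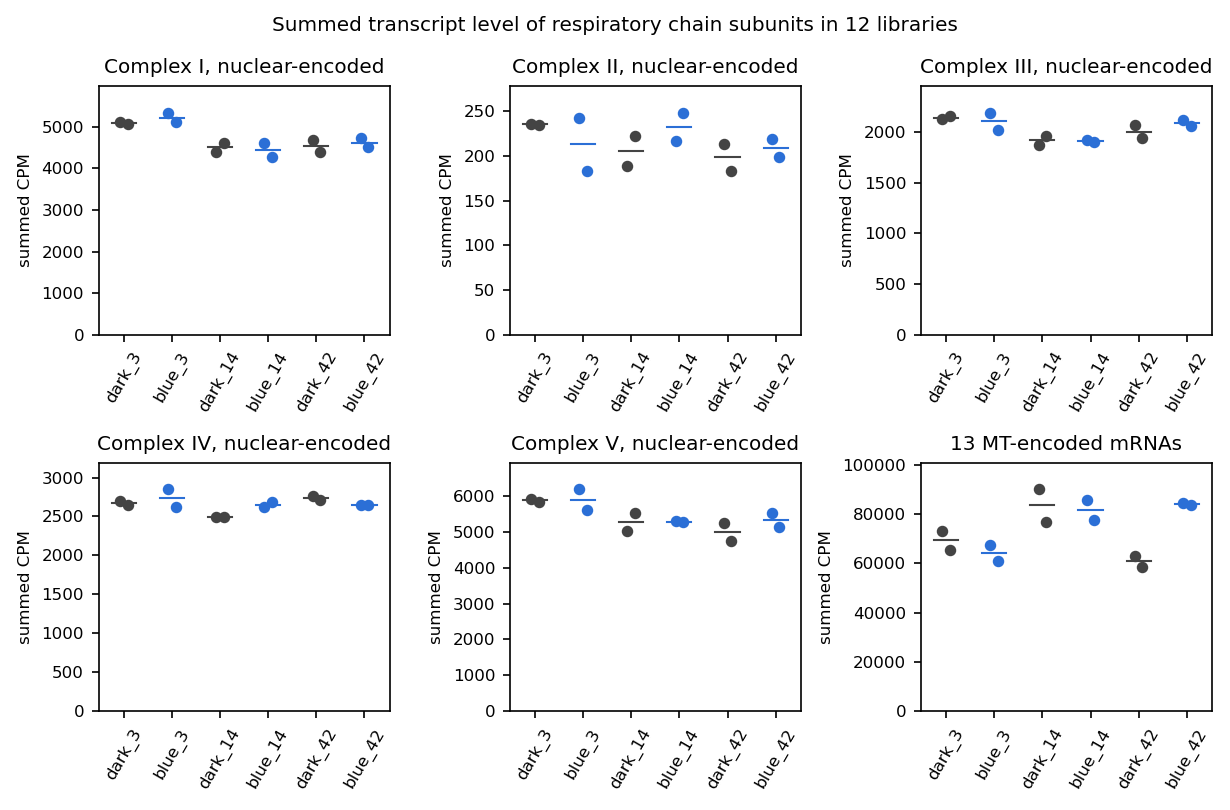
Summed level in CPM (vertical axes, from 0) of the nuclear subunits of each complex and of the 13 MT mRNAs in each of 12 libraries by group (grey, dark; blue, light; dots, libraries; bars, means of 2 libraries). Nuclear sums of complexes I and V are highest after 3 sessions, and the MT sum is 58682 to 63130 CPM in dark_42 and 83642 to 84312 in blue_42.

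The design also sets the dark groups against each other. In dark_42 against dark_3, 16 of 78 members were called, 13 lower and 3 higher, where 17.7% of all genes tested were called, 8.26% lower and 9.47% higher. The 16 of 78 are near that background in total. The members' median was -0.11 with 25 of 78 above 0, beside a median of 0.02 over all genes tested and -0.05 over the 3809 genes at 50 CPM or more.

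This uses the same dark_42 libraries as the light comparison. ATP5MC3 had the largest difference of the 78. It was at 716.0 and 686.9 CPM in dark_3 and at 393.1 and 347.5 in dark_42, and fell by 0.92 ± 0.13 (1.89-fold, edgeR adjusted p = 7.13e-05). Its groups did not overlap, and the call was kept without any 1 of the 12 libraries.

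ATP5MC1 and ATP5MC2, the other c-subunit genes, differed by -0.20 and -0.07 and did not pass. The mean of ATP5MC3 ran from its highest in dark_3 to its lowest in dark_42, a ratio of 1.89 over the 6 groups, the largest of the 78 members after ATP5MGL (4.45). The median of that ratio over the 78 members was 1.29, and 64 members stayed under 1.5.

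Other complex V genes lower in dark_42 than dark_3 were ATP5MG and ATP5MF, subunits g and f of the membrane part, where g sits at the interface of paired synthases. ATP5MG was at 793.5 and 784.0 CPM in dark_3 and at 543.4 and 504.7 in dark_42, and fell by 0.59 ± 0.12 (edgeR adjusted p = 0.00178) with the call kept without any 1 library. ATP5MF was at 211.0 and 208.4 CPM and then at 160.0 and 149.3, and fell by 0.44 ± 0.14 (edgeR adjusted p = 0.0374). In neither gene did the groups overlap. The 5 F1 genes (ATP5F1A to ATP5F1E, of the catalytic head and the central stalk) stayed between -0.14 and 0.03, none called.

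The Q module of complex I is the part of the peripheral arm where electrons leave for ubiquinone, and 2 of its 4 members described here fell and 1 rose. NDUFA5, an accessory subunit bound to that module, was at 145.4 and 138.3 CPM in dark_3 and at 107.5 and 88.96 in dark_42, and fell by 0.53 ± 0.12 (edgeR adjusted p = 0.00361). NDUFS3, a core subunit, fell by 0.33 ± 0.11 (edgeR adjusted p = 0.0371). NDUFS7, a core subunit that carries the terminal iron-sulfur cluster, rose by 0.43 ± 0.15 (edgeR adjusted p = 0.0468), from 61.67 and 62.94 CPM to 74.41 and 93.9. Its call was lost with DESeq2 (adjusted p = 0.0961), with another scaling (0.0526) and with the letter as a replicate block (0.0576). Of the 12 fits that left out 1 library it was kept in 4 (without blue_3 b, blue_14 a, blue_14 b or dark_42 a), and without dark_42 b the difference was 0.26 (edgeR adjusted p = 0.4).

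NDUFV3 was at 160.0 and 157.4 CPM in dark_3 and at 121.7 and 86.36 in dark_42, and fell by 0.61 ± 0.13 (edgeR adjusted p = 0.00277). Dark_42 b was the lower of its libraries, and without it the difference was -0.38, with an edgeR adjusted p of 0.0777. In the membrane arm and accessory group of complex I, 3 of 24 fell and none rose. They were NDUFC1 (-0.46 ± 0.14), NDUFB2 (-0.45 ± 0.14), both small membrane subunits, and NDUFAB1 (-0.36 ± 0.11), the mitochondrial acyl carrier protein.

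SDHC, a membrane anchor of complex II, was at 86.72 and 87.57 CPM in dark_3 and at 62.5 and 51.63 in dark_42, and fell by 0.61 ± 0.14 (edgeR adjusted p = 0.00615). The groups did not overlap, and the call was lost without dark_3 a, dark_3 b or dark_42 b. SDHA, SDHB and SDHD differed by -0.09, -0.06 and 0.01, none called. In complex III, UQCRB, which contributes to the ubiquinone-binding site, fell by 0.35 ± 0.11 (edgeR adjusted p = 0.0386), 1 of 9 members called.

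Complex IV split, with 2 members higher and 2 lower. COX6A1 was at 113.8 and 119.3 CPM in dark_3 and at 149.8 and 157.5 in dark_42, and rose by 0.40 ± 0.11 (edgeR adjusted p = 0.0178). COX7A2 was at 219.3 and 214.7 CPM and then at 272.9 and 293.9, and rose by 0.39 ± 0.11 (edgeR adjusted p = 0.0185). COX6C and COX6B1, further small subunits, fell by 0.40 ± 0.13 and by 0.33 ± 0.11 (edgeR adjusted p = 0.032 and 0.0361). The summed level of complex IV differed by 2.4% and that of complex III by -6.5%, whereas those of complexes I, II and V differed by -11.0%, -15.6% and -15.1%. These sums include the falls of SDHC in complex II and of ATP5MC3 and ATP5MG in complex V. The other complex II members and the F1 genes of complex V were not called.

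How many members were called here depended on single libraries. Without dark_3 a there were 3, without dark_3 b 4 and without dark_42 b 2, each of them lower, against 15 to 18 without any 1 of the other 9 libraries. The 2 that stayed called without dark_42 b were ATP5MC3 and ATP5MG, so the other 14 calls, higher and lower, ended there.

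**Figure D4:**
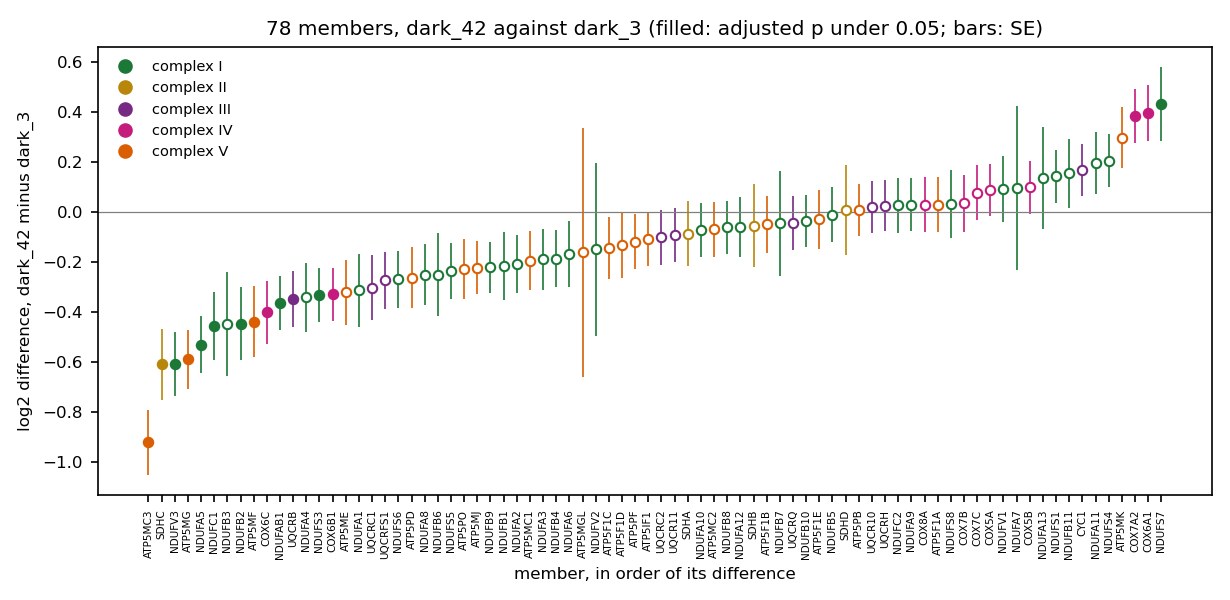
Log2 difference of dark_42 minus dark_3 (vertical axis, ± SE) for the 78 members in order (horizontal axis), coloured by complex, with filled dots for those that passed edgeR's test. The order runs from ATP5MC3 at -0.92 and SDHC at -0.61 to NDUFS7 at 0.43, with 25 members above 0.

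Most members lay lower in dark_14 than in dark_3. In this comparison 6 of 78 were called, all lower, where 12.7% of all genes tested were called and 4.61% lower. The median was -0.17 with 14 of 78 above 0, beside 0.02 over all genes tested. For 55 of 78 members both dark_14 libraries lay under both dark_3 libraries, against 30.0% of all genes tested. That share covers genes of every level and was not matched to the levels of the members. Summed levels were 16096 and 15940 CPM in dark_3 and 13962 and 14807 in dark_14.

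The 6 members were ATP5MF (-0.50 ± 0.14), ATP5F1D, the delta subunit of the central stalk (-0.47 ± 0.14), NDUFB2 (-0.46 ± 0.15), ATP5MC3 (-0.45 ± 0.13), ATP5MC1 (-0.38 ± 0.12) and NDUFC2, a membrane arm subunit (-0.37 ± 0.12). ATP5MF was at 211.0 and 208.4 CPM in dark_3 and at 140.6 and 155.2 in dark_14, without overlap. None of the 6 kept its call without dark_3 a, dark_3 b or dark_14 a, and 2 were left called without dark_14 b. Of the MT mRNAs, 11 of 13 lay above 0, with a median of 0.22 and 1 called, MT-ND4 (0.51 ± 0.14, edgeR adjusted p = 0.0197), a call lost without dark_3 a, dark_3 b or dark_14 a.

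Between dark_42 and dark_14, which share their libraries with the 2 comparisons above, 6 of 78 members were called, 4 higher and 2 lower, where 7.04% of all genes tested were called, 1.81% higher and 5.23% lower. ATP5MG (-0.57 ± 0.12) and ATP5MC3 (-0.47 ± 0.13) fell. NDUFS4, an accessory subunit of the NADH-binding module, was at 60.14 and 61.19 CPM in dark_14 and at 84.27 and 80.89 in dark_42, and rose by 0.44 ± 0.11 (edgeR adjusted p = 0.0173). COX6A1 (0.40 ± 0.11), NDUFC2 (0.39 ± 0.11) and CYC1, the cytochrome c1 of complex III (0.37 ± 0.11), rose too. Calls here ranged from 0 (without dark_14 b) to 8 as each library was left out in turn, with 2 left without dark_3 a, dark_3 b, dark_14 a or dark_42 b and 3 without blue_42 a.

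The members' median there was 0.04 with 42 of 78 above 0, while all 13 MT mRNAs were below 0, with a median of -0.52 and 7 called lower (1 without dark_14 a, 2 without dark_42 b, 4 without dark_3 a or dark_3 b). All 5 F1 genes lay above 0, from 0.08 to 0.33, none called. The nuclear sums differed by 0.5% and the MT sums by -27.1%.

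Among the irradiated groups, blue_42 against blue_3 gave 3 called members, all lower, where 7.78% of all genes tested were called and 3.39% lower. They were NDUFB2 (-0.51 ± 0.14), ATP5MJ, a small proteolipid of the ATP synthase membrane part (-0.36 ± 0.10), and ATP5IF1, the inhibitor protein that blocks ATP hydrolysis (-0.35 ± 0.10). ATP5IF1 was at 337.5 and 327.7 CPM in blue_3 and at 259.4 and 263.3 in blue_42, without overlap. Each of NDUFB2, ATP5MJ and ATP5IF1 lost its call without dark_3 a, dark_3 b, blue_3 a, blue_3 b, blue_42 a or blue_42 b. Over the 12 fits without 1 library, NDUFB2 ran from -0.565 to -0.46, ATP5MJ from -0.417 to -0.317 and ATP5IF1 from -0.369 to -0.343. ATP5MC3 differed by -0.38 here and was not called. MT mRNAs had 11 of 13 above 0 and 4 called higher, with 0 called without blue_42 b, 1 without blue_3 b and 2 without blue_3 a, blue_42 a, dark_3 a or dark_3 b. MT-RNR1 fell by 0.77 ± 0.20 (edgeR adjusted p = 0.0369), a call that 1 of the 12 fits without 1 library kept (without blue_42 a, -1.27); without blue_42 b the difference was -0.40.

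Genes that make or serve the chain were taken from lists beside the members. In light against dark, none of the assembly factors (51 tested), transcription factors and coactivators of respiratory genes (8), mitochondrial DNA expression genes (15), citric acid cycle enzymes (12) or respiratory chain genes outside the symbol rule (7) was called by edgeR's quasi-likelihood test or by DESeq2 at 3, 14 or 42 sessions. At 42 sessions DESeq2 gave no adjusted p, and so could make no call, for some of these genes. They were 7 assembly factors, 1 transcription factor or coactivator, 5 mitochondrial DNA expression genes and 2 genes outside the rule. Unadjusted p by edgeR fell under 0.05 for 8 of the assembly factors and 2 of the citric acid cycle enzymes at 42 sessions. At 3 or 14 sessions it did so for at most 3 genes of any list. These counts too stand without a share over all genes tested. COX4I1, the subunit of complex IV outside the rule, was at 984.5 and 1045 CPM in dark_42 and at 932.7 and 983.1 in blue_42.

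Between dark groups, some genes of these lists were called. Of the assembly factors, 7 of 51 fell in dark_42 against dark_3 and none rose, beside 8.26% of all genes tested called lower and 9.47% higher, with a median of -0.14 beside 0.02 over all genes tested. They include NDUFAF8 (-0.77 ± 0.13) and NDUFAF1 (-0.75 ± 0.20), which help build complex I, COX17 (-0.79 ± 0.24), the copper chaperone of complex IV, and LYRM7 (-0.66 ± 0.12), which handles the Rieske protein. In dark_14 against dark_3, 6 of 51 fell and none rose, beside 4.61% of all genes tested called lower and 12.7% in either direction. NRF1, the transcription factor whose letters were searched above, was at 14.27 and 14.83 CPM in dark_3 and at 7.68 and 9.36 in dark_42, and fell by 0.77 ± 0.19 (edgeR adjusted p = 0.00741), 1 of 8 in its list. That call was kept in 9 of the 12 fits without 1 library and lost without dark_3 a, dark_3 b or dark_42 a, with differences from -0.92 to -0.64 over the 12.

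Of the citric acid cycle enzymes, 3 of 12 fell (MDH2, DLD and IDH3A, by 0.44, 0.39 and 0.31) and OGDH rose by 0.35 in dark_42 against dark_3, beside the same 8.26% lower and 9.47% higher. Of 15 mitochondrial DNA expression genes 1 fell, no larger a share than among all genes tested: SSBP1, the single-strand DNA-binding protein of the organelle, by 0.50 ± 0.13 (edgeR adjusted p = 0.0098). ETFA, an electron carrier of fatty acid oxidation, fell by 0.40 ± 0.12 (edgeR adjusted p = 0.0197). MT mRNAs had 3 of 13 called lower there, MT-ND6 (-1.63 ± 0.28), MT-ND2 (-0.75 ± 0.17) and MT-ND1 (-0.63 ± 0.15), with 0 called without dark_42 b and 1 without dark_3 a.

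Some members share sequence with other genes. Rows of pseudogenes were present for 49 of the 78 members and together held 0.246% as many counts as the members, with the largest shares for SDHA (11.8%), ATP5MC1 (6.18%) and NDUFV2 (4.96%). In GENCODE 29, 50 members overlap another gene and 30 overlap one on the same strand. No label or processing note says how the counting treated such reads, so levels of those members are uncertain to that extent.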

How the data were processed

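The authors deposited 1 table of raw counts per gene for the 12 libraries, per the labels from 3′ tag sequencing, with STAR, featureCounts and GRCh38 named in the submitters' processing notes. For versions, annotation release, strand setting and multi-mapped reads: not given in the sources used here. Counts were scaled (trimmed mean of M-values, TMM), filtered with edgeR's filterByExpr at a minimum count of 10, and fitted over all 6 groups with edgeR 4.0.16 (limma 3.58.1, R 4.3.3) by the quasi-likelihood test. The biological coefficient of variation was 9.41%. Depth was 2073160 to 8183941 counts, and 3 counts equal 0.364 to 1.43 CPM. Adjustment of two-sided p-values was by Benjamini-Hochberg across 12878 genes. Libraries of a group differed by 1.64 (dark_3) to 8.57 (dark_42) times counting noise (chi-square per degree of freedom), so all were kept as separate libraries. Dark_42 thus had the largest spread by this measure, while the test used a spread estimated over all 6 groups. Named genes are the called members (at most 10 a direction), the 4 lowest and 4 highest members of each light comparison, called genes of the lists and core subunits. NDUFS3, UQCRB and COX6B1, called lower in dark_42 against dark_3 beyond those 10, are named too. They are not counted among the single-gene results under the alternatives. Alternatives were DESeq2 1.42.0, its size factors in edgeR (RLE), no filter, a filter at 5 CPM, scaling without MT genes, the replicate letter as a block, and leaving out each library. Scripts were tested on simulated data. Of the genes the rule and the lists name, 2 are not reported here, and counts, medians and sums leave them out. Members and lists were chosen with earlier results of these data known. Gene positions are from GENCODE 29. Figures used matplotlib 3.10.9.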

Additional observations from a re-analysis of the deposited data

How the results depend on the processing

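Without a filter, 1 member was called between light and dark at 42 sessions (ATP5MC3, 0.43), and blue_42 against blue_3 gave 7. Over fits that left out 1 library, calls ranged from 0 to 0 at 3 and at 14 sessions, 0 to 1 at 42, 0 to 1 for the difference of light effects, 0 to 9 for dark_14 against dark_3, 2 to 18 for dark_42 against dark_3, 0 to 8 for dark_42 against dark_14 and 0 to 7 for blue_42 against blue_3. Such fits can leave 1 library in an arm, which is then assumed to vary like the other groups. Median light differences ranged from -0.045 to 0.068, -0.033 to 0.041 and -0.032 to 0.06 at 3, 14 and 42 sessions. With the letter as a replicate block, blue_42 against blue_3 gave 1 call, dark_42 against dark_3 15 and dark_14 against dark_3 4. The letters are not said to pair libraries, and a minus b deviations of blue and dark correlated at 0.069, -0.137 and 0.296 across genes. NDUFA13 at 14 sessions (-0.32) ranged from -0.967 to 0.015, reversed without blue_14 b; the cause was not tested. For single genes, of 1503 alternative values over 84 results 1256 kept call and direction, 244 lost the call, 2 gained one (NDUFV3 0.67 without dark_42 a, ATP5MC3 0.43 without a filter) and 1 reversed. The 84 results include the uncalled lowest and highest members of each light comparison, which counted as kept when they stayed uncalled. Many of the alternative values left out a library from a group outside the comparison. The share kept is thus no measure of how firm the calls are. DESeq2 called 9 of 13 MT mRNAs at 42 sessions, edgeR 3, and DESeq2's share over all genes tested is not given here. With 2 libraries a group, the smallest called difference of a member was 0.33 in size (COX6B1, dark_42 against dark_3).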
